A study of Mus musculus with 3 samples.

Results

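The AP-1 transcription factor genes described here are *Jun*, *Junb*, *Jund*, *Fos*, *Fosb*, *Fosl1*, *Fosl2* and *Atf3*, 8 of the 21951 protein-coding genes of GENCODE M21. Their peaks were taken from lists of places where the nuclear receptor Ad4BP/SF-1 was found by chromatin immunoprecipitation and sequencing (ChIP-seq) in mouse Leydig cells, the androgen-producing cells of the testis. A peak counted for a gene when it overlapped the span from 50 kb before the gene to 50 kb after it on the mm10 genome. The family was selected on its known function and on measured peaks, among them a peak upstream of *Jund* that stood near the top of its list, so that the presence, score and rank of the peaks describe the choice and are not tested.

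The Leydig cells were from testes of ICR males aged 9 weeks. They were pooled from several animals, enriched on a Percoll gradient and cultured on collagen, with unattached cells washed away, and no altered allele is described. The vehicle group was cultured without cAMP and the cAMP group with it. The dose and the time of cAMP are not given in the sources used here. Each group has 1 library and 1 deposited list of peaks, while the input DNA of the same kind of cells was not used here. The vehicle list holds 5721 peaks and the cAMP list 4025. Since each condition has a single library, differences between the lists cannot be set against replicate error. Each peak carries a score from the peak caller MACS, the negative log10 of a p-value multiplied by 10. Scores start at 50 in the vehicle list and at 50.01 in the cAMP list. Read numbers are not part of the lists, so depth is unknown, and the score of an equally enriched place rises with depth. Ranks count from 1 for the highest score in a list. Of 9 Leydig marker genes, 5 had a vehicle peak within 50 kb and 4 a cAMP peak, with *Star* and *Cyp11a1* in both lists and *Hsd3b1*, *Hsd3b6*, *Insl3* and *Lhcgr* in neither. For Sertoli markers the counts were 2 and 1 of 4, for germ cell markers 1 and 1 of 4, and for macrophage markers 1 and 2 of 4. By the same rule 36.7% of all protein-coding genes had a vehicle peak and 28.8% a cAMP peak. Positions of binding do not measure expression, so the labelled cell type was not checked here.

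AP-1 is a dimer of basic leucine zipper proteins. The products of *Jun*, *Junb* and *Jund* can pair with one another or with the products of *Fos*, *Fosb*, *Fosl1* (FRA-1) and *Fosl2* (FRA-2), whereas FOS proteins need a partner of another kind. ATF3 belongs to the related ATF/CREB family, is induced by stress and can pair with JUN proteins. The dimers bind the AP-1 element, TGAGTCA on one strand and hence TGACTCA on the other, and several of the genes are switched on within minutes of a stimulus. In Leydig cells luteinizing hormone acts through cAMP, and AP-1 proteins are known as regulators of *Star*. Ad4BP/SF-1 (NR5A1) binds DNA as a monomer at a short asymmetric sequence built around CAAGG.

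Of the 8 genes, 7 had an Ad4BP/SF-1 peak within 50 kb in at least 1 of the lists. The vehicle list held 7 such peaks at 6 genes and the cAMP list 6 peaks at 6 genes. All JUN genes had a peak in both lists, as had *Fosl1* and *Fosl2*, which makes 5 genes. *Fos* had a peak in the vehicle list alone, *Atf3* in the cAMP list alone and *Fosb* in neither. Of all protein-coding genes, 36.7% had a vehicle peak, 28.8% had a cAMP peak and 22.5% had a peak in both lists, while 56.9% had none. A vehicle peak without a cAMP peak was found for 14.2% of them, and the reverse for 6.37%. Because the genes were picked with the peaks in view, nothing is read from their higher share. Within gene bodies alone, 3 AP-1 genes had a vehicle peak, 2 a cAMP peak and 2 both, beside 12.6% of all genes with a vehicle peak, 9.15% with a cAMP peak and 6.42% with both. Within 10 kb these shares of all genes were 19.3%, 13.9% and 10.1%, and within 100 kb they were 49.4%, 41.3% and 34%.

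A peak in both lists is not always the same place. The 13 peaks lay at 10 places, of which only 3 were called in both lists, at *Jun*, *Jund* and *Fosl2*. At *Junb* and *Fosl1* the lists hold different places. The *Jund* and *Jun* peaks scored at least 100 in both lists, as did 26.6% of all vehicle peaks and 23% of all cAMP peaks, and the remaining 9 peaks scored between 50.74 and 92.56.

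**Figure D1:**
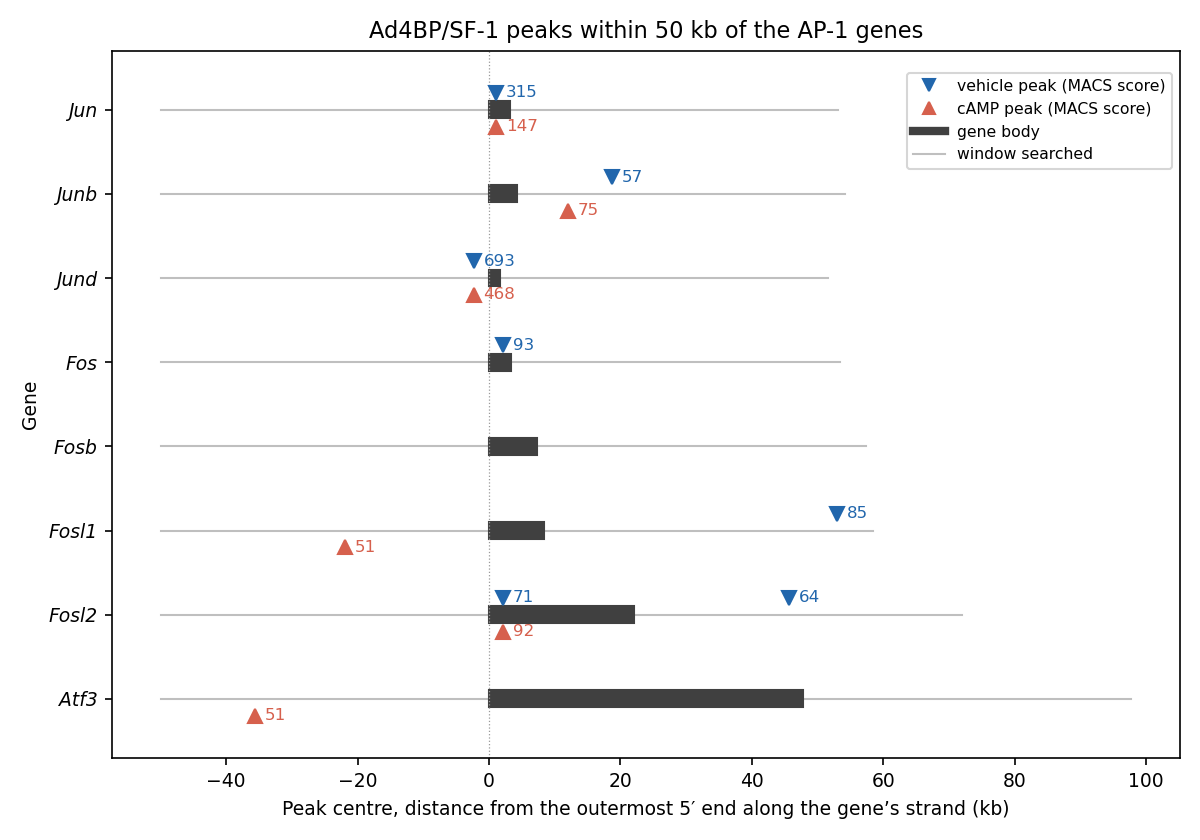
Position of each Ad4BP/SF-1 peak (triangles, with the MACS score beside them) relative to the outermost 5′ end of the 8 AP-1 genes, in kb along the strand of the gene. Blue triangles above the line are vehicle peaks and red triangles below it are cAMP peaks. At *Jun*, *Jund* and *Fosl2* the triangles of both lists stand at the same place, at *Junb* and *Fosl1* they stand apart, and *Fosb* has none.

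The sequences below show the copies of the Ad4BP/SF-1 consensus in these peaks, with the bases around them. The consensus was searched for on both strands as TCAAGGTC, TCAAGGCC, CCAAGGTC or CCAAGGCC, as the methods do not spell it out. Each line gives the strand on which the consensus reads, from 5′ to 3′, with the 11 bases on either side from the mm10 reference. The consensus stands in capitals.
*Jun*, both lists, chr4:95051140-95051169, plus strand: gtcggccaggtTCAAGGTCatgctctgttt
*Junb*, vehicle list, chr8:84960007-84960036, minus strand: agaggtgacagTCAAGGCCaaagctgactc
*Junb*, cAMP list, chr8:84966666-84966695, minus strand: gctctgtgagtTCAAGGCCaatttatgtag
*Fos*, vehicle list, chr12:85475929-85475958, minus strand: cctctgggaagCCAAGGTCatcggggatct
*Fosl1*, cAMP list, chr19:5425668-5425697, minus strand: aaggggcttgcCCAAGGTCatgcccgtaaa
*Fosl2*, both lists, chr5:32137895-32137924, minus strand: aaaggtcaaagTCAAGGCCatggctattgg
*Atf3*, cAMP list, chr1:191253672-191253701, minus strand: tctctgagagtTCAAGGCCagcttgctcta

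The *Jund* peak and the vehicle peak in the *Fosl1* window hold more than 1 copy, so a longer stretch of the plus strand is shown for each. Capitals mark the consensus copies and, in the *Fosl1* window, the element TGACTCA.
*Jund*, both lists, central bases of the vehicle peak, chr8:70696459-70696758: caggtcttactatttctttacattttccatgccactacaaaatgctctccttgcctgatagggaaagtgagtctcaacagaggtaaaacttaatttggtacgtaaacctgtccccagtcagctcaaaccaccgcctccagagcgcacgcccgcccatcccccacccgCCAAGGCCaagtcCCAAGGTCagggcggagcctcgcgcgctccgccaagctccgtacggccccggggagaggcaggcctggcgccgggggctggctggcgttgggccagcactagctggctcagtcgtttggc
*Fosl1* window, vehicle list, chr19:5500567-5500650: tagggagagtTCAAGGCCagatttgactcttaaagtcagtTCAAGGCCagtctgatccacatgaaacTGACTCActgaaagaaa

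*Jund*, which encodes the JUN protein that is present in many resting cells, is a gene of 1668 bp without introns on the plus strand of chromosome 8, from 70698949 to 70700616. Its vehicle peak lies from 70696234 to 70696982 and scored 693.34, rank 6 of 5721. Its cAMP peak lies from 70696237 to 70696976 and scored 467.59, rank 12 of 4025. The cAMP peak lies wholly within the vehicle peak, with 740 bp shared, and no annotated gene holds it. The centres lie 2341 bp and 2343 bp upstream of the transcription start site (TSS) of *Jund*, and no other protein-coding TSS is nearer. Ranked by the best peak within 50 kb, *Jund* stood above 99.9% of all protein-coding genes in the vehicle list and above 99.8% in the cAMP list. The peak was also wide, with 749 bp in the vehicle list, where 96.8% of the peaks were narrower. Its copies of the consensus, CCAAGGCC and CCAAGGTC, read on the same strand with 5 bases between them. Copies on the same strand that start at most 15 bp apart were found in 1.96% of the vehicle list and in 2.11% of the cAMP list. Neither these shares nor that of narrower peaks were limited to peaks of similar score.

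The *Jund* window held no other peak in either list, but several lie just beyond it. The nearest of these outside the 50 kb was a cAMP peak 50803 bp from the gene, with a score of 79.7, and a pair of overlapping peaks lay 51807 bp (vehicle) and 51761 bp (cAMP) away, with scores of 67.6 and 56.65. All 3 have *Pgpep1* as the gene with the nearest TSS. The window around *Jund* holds 5 other protein-coding genes.

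*Jun*, the founding member of the family, is likewise a single-exon gene, on the minus strand of chromosome 4 from 95049034 to 95052222, and no other protein-coding gene lies within its window. Its vehicle peak lies from 95050765 to 95051472 and scored 314.95, rank 86. Its cAMP peak lies from 95050887 to 95051482 and scored 147.01, rank 361. Both lie inside the exon, across part of the coding sequence and of the untranslated region, and share 586 bp. The centres lie 1104 bp and 1038 bp downstream of the TSS. Unlike the copies at *Jund*, the single TCAAGGTC of *Jun* lies in coding sequence. The peak is rich in G and C, with 64.4% in the vehicle list, where the median over the list was 48.2%.

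*Junb*, an early response gene on the minus strand of chromosome 8 from 84974484 to 84978718, had no peak in its own body. Its window is crowded, with 9 other protein-coding genes. The vehicle peak, from 84959824 to 84960231, scored 56.79, rank 4547, and lies 14253 bp beyond the 3′ end of *Junb* in a coding exon of *Rnaseh2a*, which encodes a subunit of ribonuclease H2. The cAMP peak, from 84966495 to 84966821, scored 75.31, rank 1614, and lies 7663 bp beyond the 3′ end. It is centred 218 bp downstream of a TSS of *Rnaseh2a*. The peaks are 6264 bp apart and neither has a counterpart. For both, the nearest TSS is that of *Rnaseh2a*.

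*Fos*, the prototype of the immediate-early genes, lies on the plus strand of chromosome 12 from 85473890 to 85477273, and no other protein-coding gene lies within its window. A peak was called in the vehicle list from 85475758 to 85476402, with a score of 92.56 and rank 1753. It lies in the coding part of the last exon, 2190 bp downstream of the outermost 5′ end and 1169 bp downstream of the nearest annotated TSS of *Fos*. Its CCAAGGTC lies in coding sequence and 137 bp from the centre of the peak, farther than any other copy at these genes. The cAMP list holds no peak there. The nearest cAMP peak starts at 85538981, 61708 bp beyond the 3′ end of *Fos*. The gene with the nearest TSS is *Jdp2*, which encodes another JUN partner. That TSS is 59791 bp away, and *Jdp2* has no peak within 50 kb in either list. Peaks of this strength are often called in 1 list only. Of the 200 vehicle peaks ranked next to the *Fos* peak, 46.5% had a counterpart in the cAMP list (95% exact Clopper-Pearson interval 39.4% to 53.7%, counting error only).

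*Fosb* lies on the minus strand of chromosome 7 from 19302696 to 19310051, among 7 other protein-coding genes, and had no peak in either list. The nearest vehicle peak, with a score of 116.6, lies 75483 bp beyond its 3′ end, and the nearest cAMP peak, with a score of 83.51, lies 92714 bp beyond it. Peaks that scored below 50 are not part of the lists, so a gene without a peak is not shown to be unbound.

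*Fosl1*, which encodes FRA-1, lies on the plus strand of chromosome 19 from 5447547 to 5455946. Its window holds 11 other protein-coding genes, the most of the 8 windows. The vehicle peak lies near the edge of the window, from 5500295 to 5500773, 44349 bp beyond the 3′ end and in the first intron of *Snx32*, a sorting nexin gene. It scored 85.35, rank 2054. The cAMP peak, from 5425446 to 5425796, lies on the other side, 21751 bp upstream of *Fosl1*, in the intron of *AI837181* and 464 bp from its TSS. It scored 50.79, rank 3859, close to the lowest score of the list. As at *Junb*, the lists hold different places and another gene has the nearest TSS at each.

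*Fosl2*, which encodes FRA-2, lies on the plus strand of chromosome 5 from 32135801 to 32157842, with no other protein-coding gene in its window. A peak in the first intron was shared by the lists. It spans 32137753 to 32138113 with vehicle and 32137623 to 32138168 with cAMP. It scored 70.79, rank 2994, with vehicle and 92.23, rank 1088, with cAMP. The vehicle peak lies wholly within the cAMP peak, and the centres lie 2132 bp and 2094 bp downstream of the outermost 5′ end. A single-exon transcript of *Fosl2* is also annotated there. Another vehicle peak, from 32181235 to 32181639, lies downstream of the gene and scored 63.63, rank 3681, with no counterpart in the cAMP list. It is the only peak of the 13 that holds neither the consensus nor the consensus without its first base.

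*Atf3*, the stress-induced member, lies on the minus strand of chromosome 1 from 191170296 to 191218039. A cAMP peak from 191253435 to 191253830, outside any annotated gene and 35593 bp upstream of the outermost 5′ end, scored 50.74, rank 3876, above 3.5% of its list. *Atf3* has the nearest TSS. The nearest vehicle peak lies 100632 bp upstream of the gene, beside *Nenf*. Of the 200 cAMP peaks ranked next to the *Atf3* peak, 18.5% (13.4% to 24.6%, exact interval) had a counterpart in the vehicle list. The absence of a vehicle peak is thus the more frequent outcome at this score.

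Scores of the 3 shared places can be set beside those of all 2167 pairs of overlapping peaks. Over all pairs, the log2 ratio of the cAMP score to the vehicle score had a median of -0.18, with quartiles of -0.66 and 0.25, so the cAMP score was usually the lower, and it was the higher in 38.9% of pairs. At *Jun* the log2 ratio was -1.10, below which lay 10.7% of the pairs. At *Jund* it was -0.57, below which lay 28.7% of the pairs. At *Fosl2* it was 0.38, below which lay 81.3% of the pairs. *Jund* and *Fosl2* thus stood within or close to the middle range, while *Jun* stood toward the lower end. A ratio of scores depends on the depth of both libraries and is not a ratio of binding, and no test of it is possible with 1 library per condition.

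**Figure D2:**
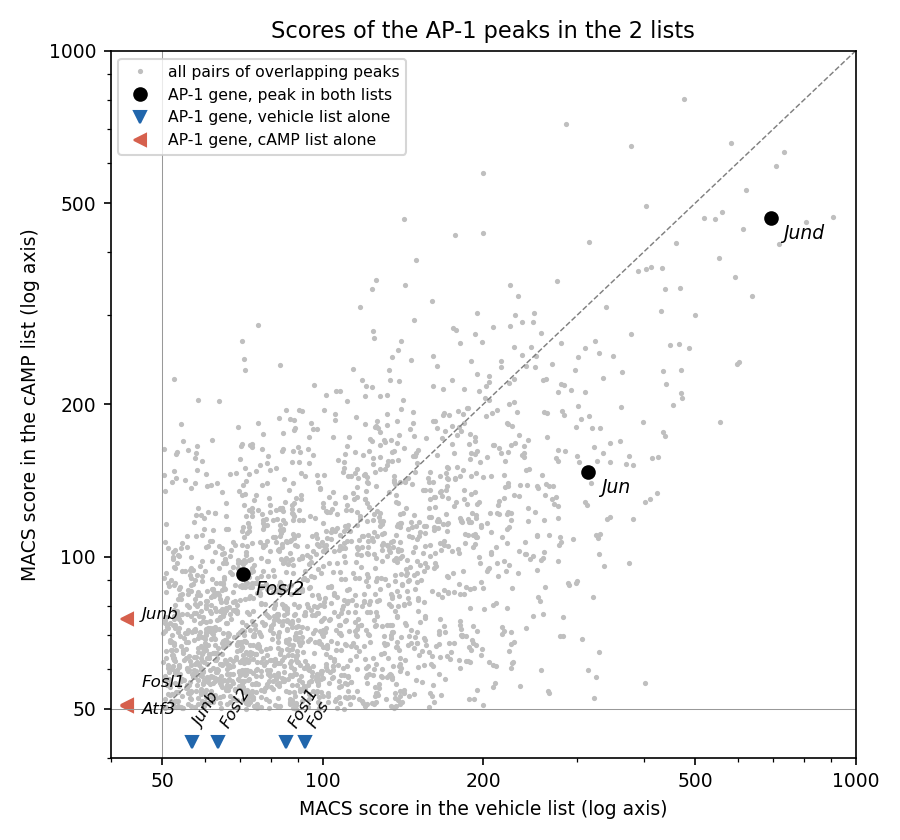
MACS scores in the vehicle list (horizontal, log axis) and in the cAMP list (vertical, log axis) for all 2167 pairs of overlapping peaks (grey) and for the AP-1 genes (black). Triangles at the margins, below 50, are AP-1 peaks called in 1 list alone and have no score in the other. *Jun* and *Jund* lie below the dashed line of equal scores, and *Fosl2* lies above it.

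Overlap between the lists followed the score. Among vehicle peaks that scored from 50 to below 60, 17% (15.2% to 18.9%, exact interval) had a cAMP counterpart, and among those that scored at least 300 it was 98% (92.9% to 99.8%). In the cAMP list the shares were 28.9% (26.5% to 31.3%) and 97.8% (88.5% to 99.9%). Over the whole lists 37.9% of vehicle peaks and 53.8% of cAMP peaks had a counterpart. At the AP-1 genes, 3 of 7 vehicle and 3 of 6 cAMP peaks had one. The places called in 1 list alone, 7 in all, scored between 50.74 and 92.56, where many peaks of either list lack a counterpart. The cAMP peak at *Junb*, with a score of 75.31, had none, whereas 58% (50.8% to 64.9%, exact interval) of the 200 cAMP peaks ranked next to it had one.

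**Figure D3:**
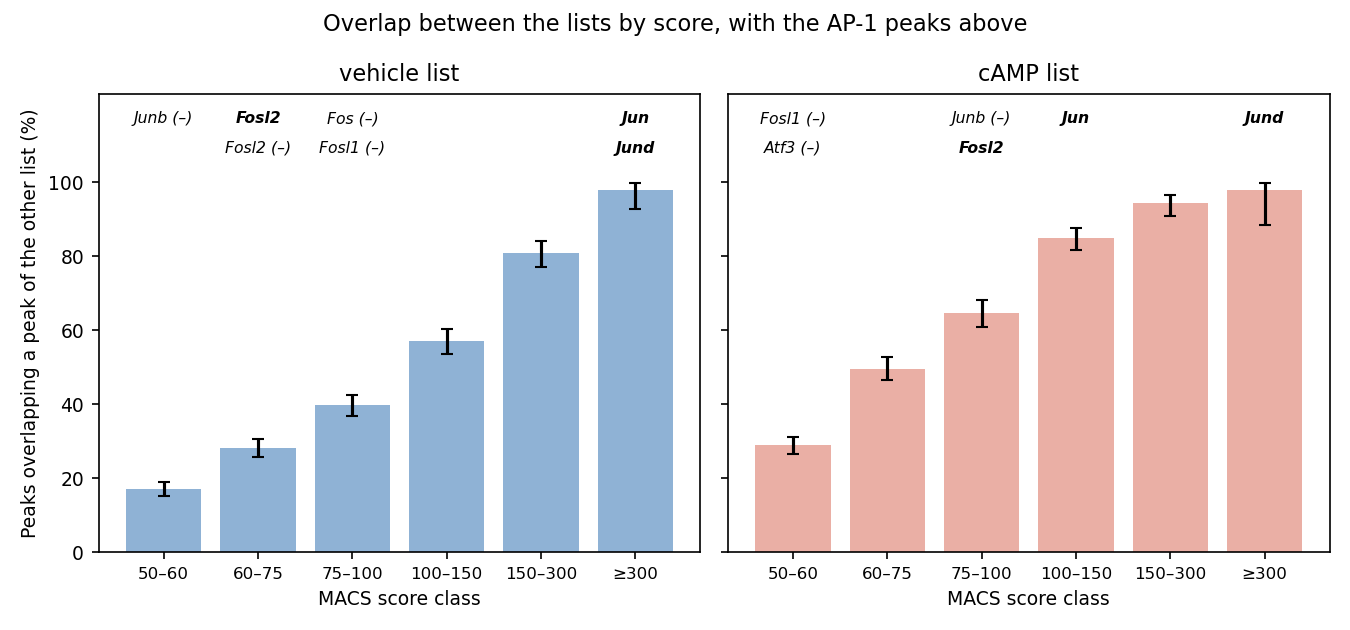
Share of peaks that overlap a peak of the other list, in percent, by class of MACS score, for the vehicle list (left) and the cAMP list (right), with exact 95% intervals as error bars. The AP-1 peaks are named above their score class, in bold where they have a counterpart and with a dash in brackets where they have none. *Jun* and *Jund* stand in classes where most peaks have a counterpart, and the names with a dash stand at scores below 100.

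Sequence was not used to choose the genes. The consensus was present in 6 of 7 vehicle and in all 6 cAMP peaks, beside 80.4% of all vehicle peaks and 77.1% of all cAMP peaks. The form without the first base gave the same counts, beside 83.8% and 80%. At least 2 copies were present in 2 of the 7 vehicle peaks (*Jund* and the *Fosl1* window) and in 1 of the 6 cAMP peaks (*Jund*), beside 20.8% and 19.4%. No test was made on so few peaks. Counting each place once, there were 11 copies, of which 6 were TCAAGGCC, 3 were CCAAGGTC, 1 was CCAAGGCC and 1 was TCAAGGTC, the copy at *Jun*. In the lists as a whole TCAAGGTC was the most frequent form, with 42.6% of 6017 copies in the vehicle list and 45.1% of 4049 in the cAMP list, and TCAAGGCC made up 27.8% and 28.3%. Of the 11 copies, 4 lay in sequence that the reference masks as repeated (the cAMP peak at *Junb*, both copies in the *Fosl1* window with vehicle and the *Atf3* peak), and all 4 were TCAAGGCC. Over the lists 36.1% of copies in vehicle peaks and 40.9% of those in cAMP peaks were masked, and for TCAAGGCC 54.7% and 58.6%. All 11 copies at the AP-1 genes were followed by A, as were 81.4% of the copies in the vehicle list and 84.4% of those in the cAMP list. Copies lay a median of 35 bp from the peak centre with vehicle and 30 bp with cAMP, beside 45 bp and 46 bp over the lists.

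**Figure D4:**
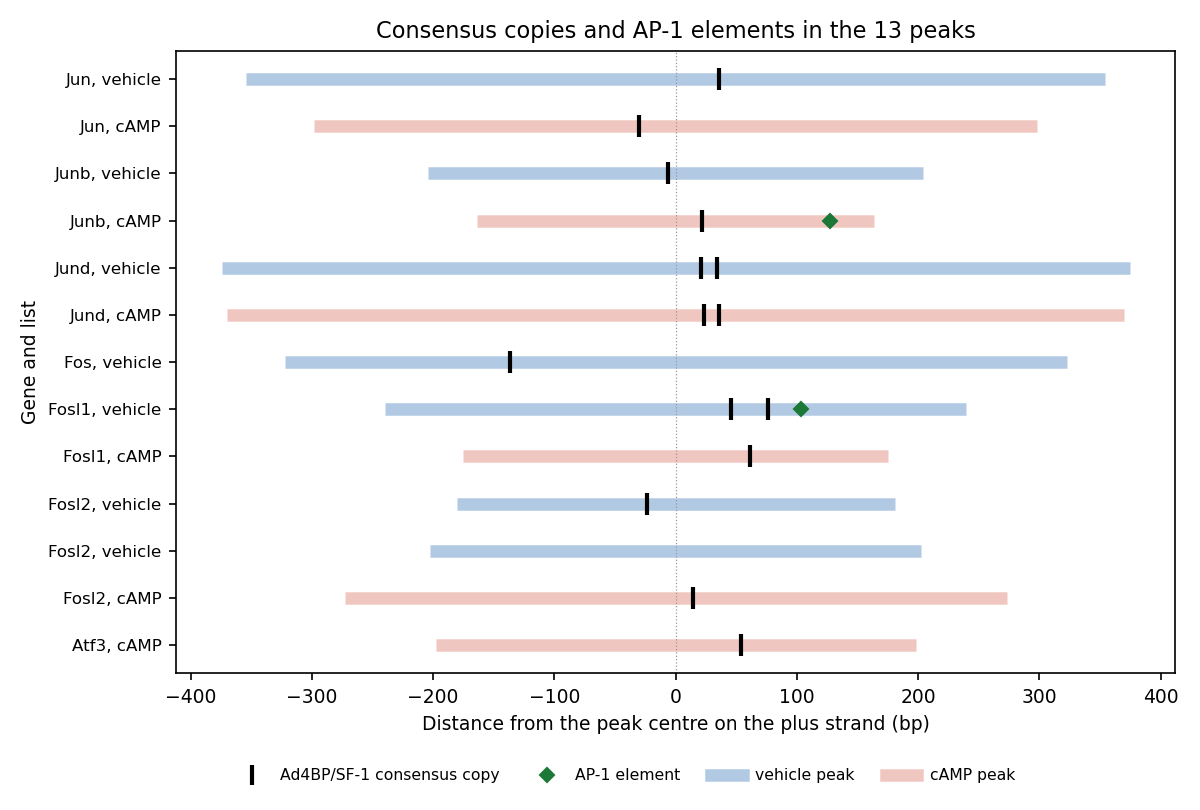
Copies of the Ad4BP/SF-1 consensus (black ticks) and AP-1 elements (green diamonds) in the 13 peaks, placed by their distance in bp from the centre of the peak on the plus strand. Bars span each peak, blue for vehicle and red for cAMP. Every peak but the downstream *Fosl2* vehicle peak holds a copy, and all copies but the one at *Fos* lie within 100 bp of the centre.

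The element that AP-1 dimers themselves bind was present in 1 vehicle peak and 1 cAMP peak. In the *Fosl1* window the vehicle peak held TGACTCA 19 bases after its downstream consensus copy. In the *Junb* window the cAMP peak held TGACTCA 97 bases from its consensus copy, in an annotated untranslated region of *Rnaseh2a*. The AP-1 element was present in 16.1% of all vehicle peaks and in 17.3% of all cAMP peaks. The cAMP response element TGACGTCA, which CREB proteins bind, was present in 0 of the 13 peaks and in 0.699% and 0.77% of all vehicle and cAMP peaks. Its shorter form TGACG was present in the *Jun* peak of each list and in no other AP-1 peak, beside 18.7% and 17.9% of all peaks. The places at *Jun*, *Jund*, *Fos*, *Fosl2* and *Atf3* thus held neither full element.

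No peak of either list overlapped the stretch from 250 bp before to 50 bp after the outermost 5′ end of any of the 8 genes. Such an overlap was found for 1.33% of all protein-coding genes with vehicle and for 0.651% with cAMP. RefSeq promoters of that span on GRCm38.p6 were matched for 7 of them. Of these, the promoter of *Fos* held the consensus, as GGCCTTGG on the strand of the gene, with its first base 107 bp upstream of the start. It was present in 5.73% of 32851 promoters. None of the 7 held the AP-1 element or the full cAMP response element, which were present in 5.2% and 1.79% of promoters. The shorter form TGACG was present in 4 of the 7, those of *Junb*, *Fos*, *Fosb* and *Atf3*, beside 20.8% of promoters. Around *Fos* the letters were thus present in a promoter without a peak, chr12:85473640-85473939, as well as under the vehicle peak in the last exon.
*Fos* promoter, around the consensus: cgcccgcagagGGCCTTGGggcgcgcttcc

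Peaks centred within 5 kb of a TSS of the AP-1 gene itself numbered 4 of 7 in the vehicle list, at *Jun*, *Jund*, *Fos* and *Fosl2*, and 3 of 6 in the cAMP list. The shared places were all among them. The other peaks lay at least 9884 bp from a TSS of the AP-1 gene and had no counterpart in the other list. Those in the *Junb* and *Fosl1* windows were near a TSS of another gene, so that 6 of 7 vehicle and 5 of 6 cAMP peaks were centred within 5 kb of some protein-coding TSS, beside 34.8% of all vehicle peaks and 32.6% of all cAMP peaks. These positions follow in part from the choice of windows around genes, and nothing is read from the difference. When each peak was given only to the gene with the nearest TSS, *Jun*, *Jund* and *Fosl2* kept a peak in both lists, *Fos* in the vehicle list and *Atf3* in the cAMP list, and *Junb* and *Fosl1* had none. By that rule 18.1% of protein-coding gene symbols had a vehicle peak and 14.1% a cAMP peak.

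Related genes were counted in the same windows. Of 15 other basic leucine zipper genes, 6 had a vehicle peak and 5 a cAMP peak, which like the counts that follow is to be set beside 36.7% and 28.8% of all protein-coding genes. At *Atf2*, whose product pairs with JUN, the best peak scored 143.6 with vehicle and 92.89 with cAMP, below the *Jund* and *Jun* peaks of each list, and lies at a place that has *Atp5g3* as the gene with the nearest TSS. Of 13 kinases and factors that act upstream of AP-1, 8 had a vehicle peak and 8 a cAMP peak. At *Mapk3*, the ERK1 gene, the best peak scored 433.45 and 371.41 but lay 35106 bp and 35075 bp away with *Aldoa* as the gene with the nearest TSS. At *Mapk8*, the JNK1 gene, the vehicle list alone held peaks, the best with a score of 104.9. That peak lay 26922 bp from the TSS of *Mapk8* and has *Arhgap22* as the gene with the nearest TSS. Of 12 other immediate-early genes, 5 had a vehicle peak and 7 a cAMP peak. At *Klf2* the place 3622 bp from its TSS scored 234.1 with vehicle and 138.52 with cAMP. A place 47199 bp upstream scored 78.63 and 139.61, and its cAMP peak has *Ap1m1* as the gene with the nearest TSS. The best peak at *Ier3* scored 140.49 and 195.58.

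Set beside 2 other groups of genes, the AP-1 genes had a peak at 6 of 8 in each list. Of 3 NR4A nuclear receptor genes, 1 had a vehicle peak and 0 had a cAMP peak. Of 10 CREB family and coactivator genes, 6 had a vehicle peak and 4 a cAMP peak, with the best vehicle peak at *Creb3*, which scored 306.74 with vehicle and 68.68 with cAMP at a place that has *Tpm2* as the gene with the nearest TSS. The lists are of unequal size, the AP-1 genes were chosen with their peaks known, and the differences between the lists were not tested.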

How the data were processed

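ChIP was performed by the authors with their antibody against Ad4BP/SF-1. The authors mapped reads to mm10 with Bowtie (0.12.8 in the submitters' processing notes, an earlier release in the methods), allowed up to 3 mismatches, kept uniquely mapped reads and called peaks per library with MACS. Column 5 of the deposited lists is the MACS score. Whether the input was the control is not given in the sources used here. The threshold stated in the methods equals a score of 30, whereas the deposited lists start at 50. Places where reads map to more than one site can be missed.

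Genes were those of GENCODE M21, and sequence came from GRCm38.p6. Spliced exons of all 8 genes equalled their GENCODE transcripts, and 0 peaks ran past a chromosome end. Peaks were joined to genes in pandas 2.3.3 and numpy 2.4.6 under Python 3.11.15, sequences were read with samtools 1.23.1 and pysam 0.24.0, intervals came from scipy 1.17.1 and plots from matplotlib 3.10.9. A counterpart shared at least 1 bp. As a check, bedtools 2.31.1 found 2167 overlapping peaks in each list too. The functions were tested on simulated data. Coordinates count from 1.

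The members and lists were chosen with earlier results of these data known. The genes named are the 8 members, the genes with the TSS nearest to their peaks or around them, and the 2 genes with the highest-scoring peak of each related list, of which 1 is not reported here. *Creb3* and the genes with the TSS nearest to peaks outside the windows (*Pgpep1*, *Jdp2*, *Nenf*) or to peaks of the related lists were named after their values were seen. So were the base after the consensus, its spacing at *Jund* and the masking of its copies. The alternatives were other windows, scores, overlaps, consensus forms and start sites.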

Additional observations from a re-analysis of the deposited data

How the results depend on the processing

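No paired analysis was possible because each condition has 1 library, and for the same reason none was left out. Most counts depended on the window and on the score. With the gene body only, 3 genes had a vehicle peak (3 peaks), 2 had a cAMP peak (2 peaks) and 2 had one in both lists. Of all protein-coding genes, 12.6%, 9.15% and 6.42% did. With 10 kb on either side, 3 genes had a peak in both lists, beside 10.1% of all genes, and the vehicle list held 4 peaks. The median distance of the peaks from a TSS of their gene, 2341 bp (vehicle) and 6113.5 bp (cAMP) within 50 kb, was then 1464.5 bp and 2032.5 bp. With 100 kb on either side, 7 genes had a vehicle peak and 8 a cAMP peak, beside 49.4% and 41.3% of all genes. The lists then held 20 and 14 peaks in these windows. With scores of at least 75, 2 genes had a peak in both lists, beside 11.1% of all protein-coding genes, and the vehicle list held 4 peaks. With scores of at least 100, 2 genes (*Jun* and *Jund*) had a vehicle peak, 2 a cAMP peak and 2 both, beside 14.6%, 9.12% and 6.69% of all genes, and each list held 2 peaks, of which 2 had the consensus. With only peaks whose nearest TSS is that of the gene, 3 genes had a peak in both lists, beside 9.65% of gene symbols. In the central 200 bp, 0 vehicle and 0 cAMP peaks held an AP-1 element, beside 8.23% and 9.59% of all peaks. From the outermost 5′ ends the median distance of the cAMP peaks was 7201.5 bp. The last setting changes only the start that distances are counted from, and the others change the peaks or the bases that are counted. The number of peaks with a counterpart was 3 in each list also when both peaks had to share 50% of their length and when their centres had to lie within 500 bp. Taking as many top-scoring vehicle peaks as the cAMP list holds, a setting chosen after seeing the data, left 5 genes with a vehicle peak and 4 with a peak in both lists, beside 29.5% and 20% of all genes. With depth unknown and no peak under a score of 50 listed, a gene without a peak may be bound below that score.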
